A study of Mus musculus with 2 samples.

Results

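Calcium handling genes of smooth muscle were followed in mRNA-seq of jejunal tunica muscularis from 2 genotypes, *Dnmt1*-WT and *Dnmt1*-KO. The 10 genes were chosen by symbol and are *Cacna1c*, *Cacnb2*, *Cacna1h*, *Ryr2*, *Ryr3*, *Itpr1*, *Atp2a2*, *Atp2b4*, *Pln* and *Stim1*. All 10 had a row among the 18159 gene symbols measured. The tunica muscularis is the muscle wall of the small intestine, peeled from the mucosa, and the mice were 15 days old and on a C57BL/6 background. *Dnmt1*, the maintenance DNA methyltransferase, was deleted in *Dnmt1*-KO mice by a Cre recombinase under the *Myh11* promoter, which is active in smooth muscle cells (SMC). The *Dnmt1*-WT mice carry the same smMHC Cre-eGFP transgene, so Cre and eGFP are shared by both groups. The strain of both libraries is labelled as a Myh11-cre,-EGFP transgenic with Dnmt1lox/lox, and the free-text description of both gives the knockout, so *Dnmt1*-WT was assigned from the genotype label and the title. Each genotype has 1 library, made from RNA of several mice of both sexes, and how these were combined is not given in the sources used here. No difference below can therefore be set against a spread between replicates, and no test between genotypes was possible.

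Smooth muscle contracts when calcium in the cytosol rises and binds calmodulin, which activates myosin light chain kinase. Calcium enters through voltage-gated channels and is released from the sarcoplasmic reticulum through IP3 receptors and ryanodine receptors. It is then pumped back into the reticulum by SERCA, or out of the cell by plasma membrane pumps, and STIM proteins sense an empty reticulum and open entry channels. In the gut wall, interstitial cells, neurons, glia, vessels and immune cells use paralogues of the same channels and pumps.

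The values are FPKM, fragments scaled for transcript length and for the size of each library, so levels of different genes can be roughly set side by side. The ratio between genotypes still ran with transcript length and GC content, as described below. Shares within gene families and level ratios between genes use FPKM as listed, without correction for this. Read counts behind single genes are not in the table, and no counting interval was computed. The targeted gene, *Dnmt1*, was listed at 11.58 FPKM in *Dnmt1*-WT and 7.58 FPKM in *Dnmt1*-KO, a ratio of 0.655 in whole tissue. The smooth muscle label was checked with 15 contractile genes, which summed to 38115 FPKM in *Dnmt1*-WT and 24771 FPKM in *Dnmt1*-KO, none of them at 0. All 15 were lower in *Dnmt1*-KO, with a median log2 ratio of -0.66. A list of leukocyte and macrophage genes summed to 129.7 and 465.67 FPKM, an endothelial list to 55.9 and 147.37 FPKM, an adipocyte list to 109.79 and 1204.6 FPKM, and an enterocyte list to 436 and 894 FPKM. All 10 leukocyte and macrophage genes, all 7 endothelial genes and all 7 adipocyte genes were higher in *Dnmt1*-KO, and of these *Lep* was at 0 in *Dnmt1*-WT. All 5 genes of a list for interstitial cells of Cajal were lower, with *Kit* close to its level at 38.95 and 38.1 FPKM. The log2 ratio of *Kit* was -0.03 and reached 0.12 under another way of scaling or correcting the values. The part of these cell types in the values of the calcium genes was not tested. In whole tissue, fewer cells of a type and less RNA per cell cannot be told apart.

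All 10 calcium handling genes were lower in *Dnmt1*-KO, as were 49.1% of the 16102 genes above 0 FPKM in both libraries. The FPKM ratio, *Dnmt1*-KO over *Dnmt1*-WT, was 0.5 or less for 4 of the 10, *Pln*, *Atp2b4*, *Ryr3* and *Cacnb2*, against 4.98% of all genes. This count was 1 after centring on transcript length and 2 with a pseudocount of 1 FPKM. No member had a ratio of 2 or more, which 11.8% of all genes had. A value at least 1.5-fold lower was found for 9 of the 10 and for 12.6% of all genes. After centring on transcript length, *Cacna1h*, *Itpr1* and *Atp2a2*, at log2 ratios of -0.39, -0.49 and -0.54, no longer reached 1.5-fold. Of the 8 members with a mean of at least 10 FPKM, all were lower and 3 had a ratio of 0.5 or less, against 52.8% and 2.54% of the 6505 genes of that level. The median log2 ratio was -0.92 for the calcium handling genes and 0.0050 for all genes. *Stim1* was the member that stayed near its *Dnmt1*-WT level, and *Pln* was the one furthest from it. The 10 genes together summed to 679.8 FPKM in *Dnmt1*-WT and 368.28 FPKM in *Dnmt1*-KO.

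**Figure D1:**
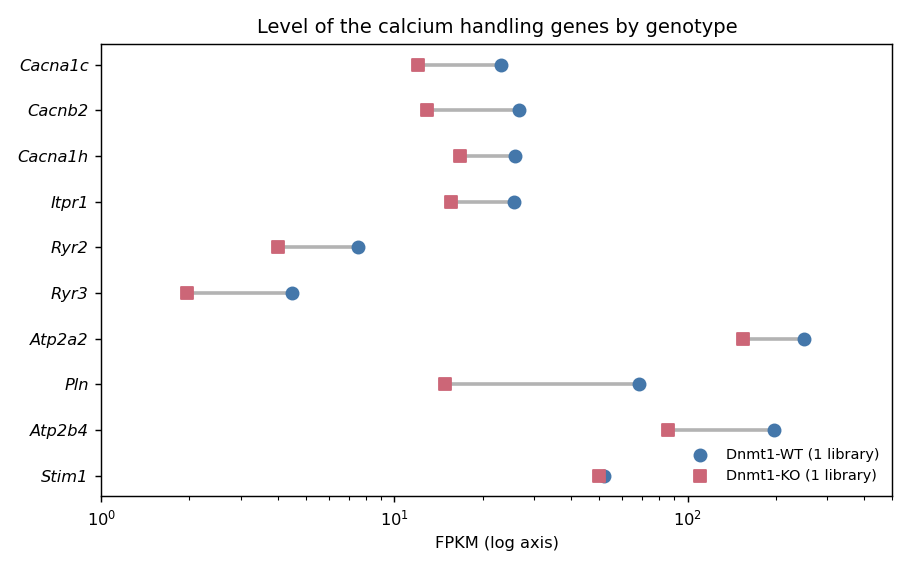
FPKM (log axis) of each calcium handling gene in the 1 *Dnmt1*-WT library (circles) and the 1 *Dnmt1*-KO library (squares), ordered from entry channels through release channels and pumps to the store sensor; lines join the values of a gene. Every square lies to the left of its circle, with the widest gap at *Pln* (68.13 and 14.91 FPKM) and the narrowest at *Stim1* (51.77 and 49.74 FPKM).

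In GRCm38, with GENCODE annotation, all 10 members are protein-coding genes. *Cacna1c* lies at chr6:118587240-119196418 and *Itpr1* at chr6:108213096-108551109, *Cacnb2* at chr2:14603088-14987908 and *Ryr3* at chr2:112631355-113217096. *Cacna1h* lies at chr17:25374285-25433783, *Ryr2* at chr13:11553102-12106945, *Atp2a2* at chr5:122453513-122502225 and *Atp2b4* at chr1:133699457-133801041. *Pln* lies at chr10:53337667-53345987 and *Stim1* at chr7:102267806-102437319. *Cacnb2*, *Itpr1*, *Pln* and *Stim1* are on the plus strand and the other members on the minus strand.

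In the *Dnmt1*-WT library the most abundant members were the pumps *Atp2a2* and *Atp2b4*, at 249.23 and 197.55 FPKM. *Pln* followed at 68.13 FPKM and *Stim1* at 51.77 FPKM. *Cacnb2*, *Cacna1h*, *Itpr1* and *Cacna1c* lay close together between 23.03 and 26.7 FPKM, and the ryanodine receptors were lowest. In the *Dnmt1*-KO library the pumps still led and the ryanodine receptors were still lowest, but *Pln* had moved below *Stim1*, *Cacna1h* and *Itpr1*. Without replicates, the order among *Cacna1h*, *Itpr1*, *Pln*, *Cacnb2* and *Cacna1c* in *Dnmt1*-KO, all between 12.01 and 16.8 FPKM, cannot be resolved.

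The members of the entry channels were all lower in *Dnmt1*-KO. *Cacna1c*, which encodes the pore of the L-type channel that carries most calcium entry in gut smooth muscle, was listed at 23.03 FPKM in *Dnmt1*-WT and 12.01 FPKM in *Dnmt1*-KO, a ratio of 0.521. *Cacnb2*, an auxiliary subunit that brings such pores to the membrane, had 26.7 and 12.9 FPKM, a ratio of 0.483. *Cacna1h*, the pore of a T-type channel that opens at more negative voltages, had 25.75 and 16.8 FPKM, a ratio of 0.652. *Cacna1c* stood at 0.863 times the level of *Cacnb2* in *Dnmt1*-WT and at 0.931 times in *Dnmt1*-KO. *Cacnb2* made up 31.0% of the summed beta subunits in *Dnmt1*-WT and 20.9% in *Dnmt1*-KO, and that sum, 86.23 and 61.66 FPKM, had a ratio of 0.715, closer to 1 than that of *Cacna1c*.

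The list of voltage-gated calcium channel subunits held 18 genes, of which *Cacna1f* and *Cacna2d4* had no row and *Cacna1s*, the skeletal muscle pore, was at 0 in *Dnmt1*-WT and 0.14 FPKM in *Dnmt1*-KO. Of the 12 remaining genes outside the main set, 7 were lower and 5 higher, with a median log2 ratio of -0.25. Of these 12, 1 was at a ratio of 0.5 or less and 0 at 2 or more. The shares over all genes were 49.1% lower, 4.98% at 0.5 or less and 11.8% at 2 or more. *Cacna2d1*, an auxiliary subunit of L-type channels, was listed at 29.84 and 17.35 FPKM, and *Cacnb3* at 44.78 and 31.93 FPKM. *Cacna1e*, the pore of R-type channels, went from 12.84 FPKM in *Dnmt1*-WT to 5.22 FPKM in *Dnmt1*-KO, the lowest ratio of the list (0.407). The pores of P/Q-type and N-type channels, known from neurons, stayed near their level, with *Cacna1a* at 5.41 and 5.47 FPKM and *Cacna1b* at 5.7 and 6.52 FPKM. *Cacna1g*, a T-type pore like *Cacna1h*, was higher in *Dnmt1*-KO, at 6.31 and 8.61 FPKM, so that *Cacna1h* made up 79.6% of the summed T-type pores in *Dnmt1*-WT and 65.4% in *Dnmt1*-KO. The list of enteric neuron genes summed to 667.24 and 772.63 FPKM, with 7 of its 10 genes higher in *Dnmt1*-KO.

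The release channels of smooth muscle were lower in *Dnmt1*-KO. *Itpr1*, the receptor that opens when IP3 is made after neurotransmitter binding, was listed at 25.65 FPKM in *Dnmt1*-WT and 15.64 FPKM in *Dnmt1*-KO, a ratio of 0.610. *Ryr2*, the ryanodine receptor best known from heart, had 7.5 and 4.01 FPKM, a ratio of 0.535. *Ryr3*, a further ryanodine receptor found in smooth muscle and brain, had 4.49 and 1.96 FPKM, a ratio of 0.437. Ryanodine receptors were the lowest members in both libraries, and *Ryr1*, the skeletal muscle form, was at 0 in *Dnmt1*-WT and 0.16 FPKM in *Dnmt1*-KO. The other IP3 receptors did not share the direction. *Itpr3*, known from epithelia, was listed at 10.67 and 15.23 FPKM and *Itpr2* at 1.23 and 1.34 FPKM. *Itpr1* therefore held 68.3% of the summed IP3 receptor level in *Dnmt1*-WT and 48.6% in *Dnmt1*-KO, while the sum itself was 37.55 and 32.21 FPKM. Of the 8 enterocyte genes, 7 were higher in *Dnmt1*-KO, and the part of epithelial RNA in the *Itpr3* value was not tested.

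**Figure D2:**
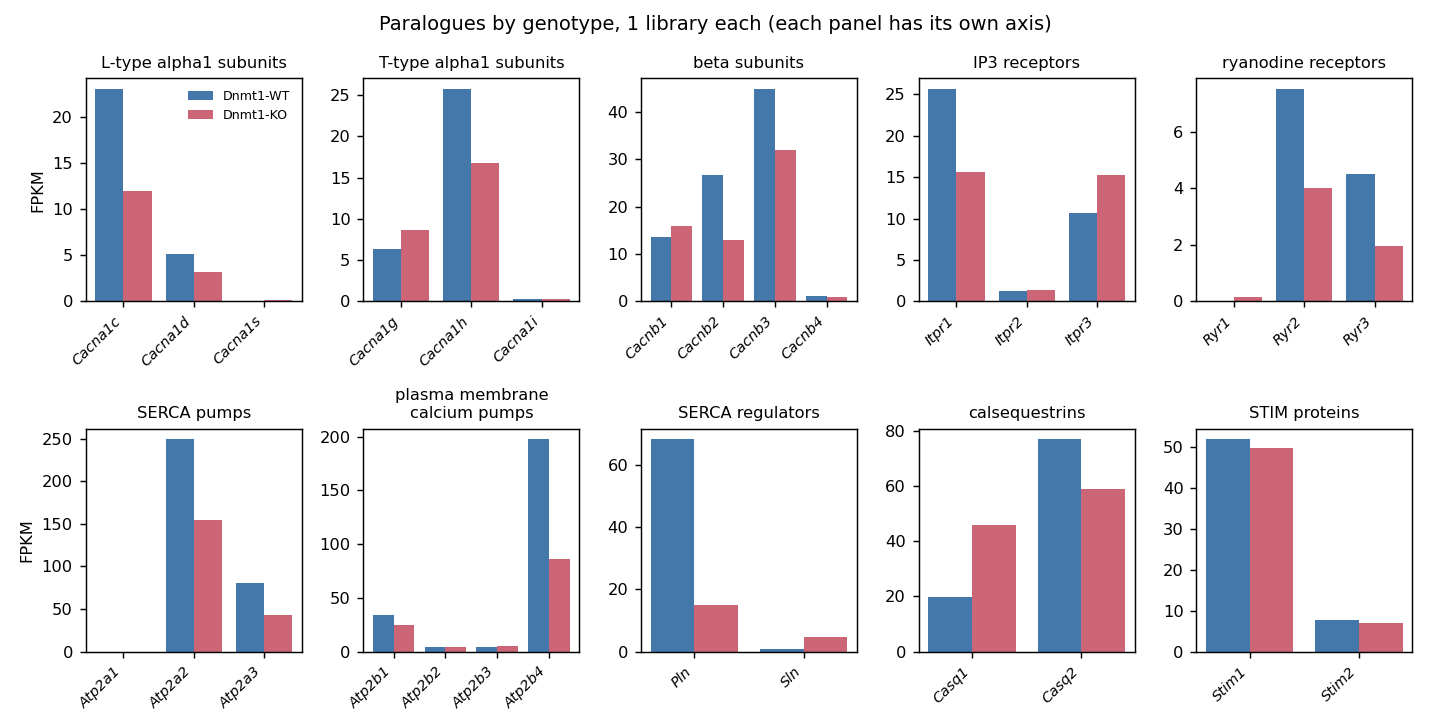
FPKM of paralogues in *Dnmt1*-WT (blue) and *Dnmt1*-KO (red), 1 library each, with a separate FPKM axis starting at 0 in each panel. The leading smooth muscle form of most families is shorter in *Dnmt1*-KO, while *Itpr3* (10.67 and 15.23 FPKM), *Cacna1g* (6.31 and 8.61 FPKM), *Sln* (0.69 and 4.62 FPKM) and *Casq1* (19.82 and 45.95 FPKM) are taller.

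Removal of calcium from the cytosol was represented by the most abundant members. *Atp2a2*, which encodes the SERCA pump of the reticulum in heart and smooth muscle, was listed at 249.23 FPKM in *Dnmt1*-WT and 154.54 FPKM in *Dnmt1*-KO, a ratio of 0.620. *Atp2b4*, a plasma membrane calcium pump, had 197.55 and 85.77 FPKM, a ratio of 0.434. *Atp2b4* had thus the larger loss of the 2 pumps, and the level of *Atp2a2* was 1.26 times that of *Atp2b4* in *Dnmt1*-WT and 1.80 times in *Dnmt1*-KO.

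Both families were dominated by 1 gene in each library. *Atp2b4* held 82.1% of the summed plasma membrane pump level in *Dnmt1*-WT and 71.1% in *Dnmt1*-KO, and the family sum was 240.61 and 120.69 FPKM. *Atp2b1*, a pump found in most cell types, was listed at 34.44 and 25.02 FPKM, and the neuronal forms *Atp2b2* and *Atp2b3* at 4.72 and 4.73 and at 3.9 and 5.17 FPKM. *Atp2a2* held 75.7% of the SERCA sum in *Dnmt1*-WT and 78.1% in *Dnmt1*-KO, since *Atp2a3*, a SERCA form outside the main set, was also lower, at 80.05 and 43.14 FPKM. *Atp2a1*, the SERCA form of fast skeletal muscle, was at 0 in *Dnmt1*-WT and 0.08 FPKM in *Dnmt1*-KO. Over the whole list of 13 pumps and exchangers, 10 genes outside the main set were above 0 in both libraries. Of these 10, 7 were lower and 3 higher, with a median log2 ratio of -0.38, and 49.1% of all genes were lower. The sodium-calcium exchanger *Slc8a1* was listed at 40.47 and 33.5 FPKM, and *Slc8a3*, the lowest ratio of the list at 0.383, at 5.28 and 2.02 FPKM. The 1 gene with a ratio of 2 or more, *Atp2c2*, a secretory pathway pump, lay at 0.12 and 0.54 FPKM.

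*Pln* stood furthest from its *Dnmt1*-WT level of all members. It encodes phospholamban, a small membrane protein that holds SERCA back until it is phosphorylated. *Pln* was listed at 68.13 FPKM in *Dnmt1*-WT and 14.91 FPKM in *Dnmt1*-KO, a loss of 78.1% and a log2 ratio of -2.19. Of 670 genes of like mean level, 1 had a lower ratio. *Pln* went from the 969th to the 4735th most abundant gene of the table. The loss was larger than that of its target, so that *Pln* stood at 0.273 times the level of *Atp2a2* in *Dnmt1*-WT and at 0.0965 times in *Dnmt1*-KO. *Sln*, which encodes sarcolipin, a SERCA regulator related to phospholamban, went the other way, from 0.69 FPKM in *Dnmt1*-WT to 4.62 FPKM in *Dnmt1*-KO. Its log2 ratio was 2.74, and 1.73 with a pseudocount of 1 FPKM. Of 9 skeletal muscle genes, 7 were also higher in *Dnmt1*-KO, and their part in the *Sln* value was not tested. *Pln* was the more abundant of this pair in both libraries, at 98.7 times the level of *Sln* in *Dnmt1*-WT and 3.23 times in *Dnmt1*-KO. The number of *Pln* transcript variants was 2 in *Dnmt1*-WT and 1 in *Dnmt1*-KO. Among all genes with 2 variants in *Dnmt1*-WT, 13.0% had fewer in *Dnmt1*-KO. In the same annotation *Pln* lies wholly within *Cep85l* on the opposite strand, and *Cep85l* was listed at 5.39 and 2.46 FPKM. The sources used here do not say whether reads were assigned by strand, so reads of *Pln* and *Cep85l* may not be fully separated. The same holds at the ends of *Cacna1c*, where it overlaps *Dcp1b* by 21166 bases (5.37 and 3.04 FPKM), and of *Ryr3*, where it overlaps *Aven* by 3219 bases (8.72 and 7.39 FPKM).

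*Stim1*, which encodes the calcium sensor of the reticulum that opens ORAI channels, was listed at 51.77 FPKM in *Dnmt1*-WT and 49.74 FPKM in *Dnmt1*-KO, a ratio of 0.961. This ratio lay in the middle of those of genes of like level, 48.5% of which were lower. Of its partners, *Orai1* was listed at 22.82 and 22.16 FPKM, *Orai3* at 22.93 and 20.46 FPKM and *Stim2* at 7.77 and 6.86 FPKM, while *Orai2* was higher in *Dnmt1*-KO, at 3.08 and 4.29 FPKM. The level of *Stim1* relative to the channel *Orai1* was 2.27 in *Dnmt1*-WT and 2.24 in *Dnmt1*-KO. The receptor-operated TRPC channels, counted in the same list of 11 genes, were spread widely. *Trpc4*, which contributes to the muscarinic cation current of gut smooth muscle but is not its only channel, was listed at 12.49 and 6.65 FPKM. *Trpc1* had 8.55 and 4.21 FPKM. *Trpc6* was higher in *Dnmt1*-KO, at 3.91 and 19.93 FPKM, a ratio of 5.10. *Trpc5* was at 0 in *Dnmt1*-KO and at 0.06 FPKM in *Dnmt1*-WT. Outside the main set, 9 genes of this list were above 0 in both libraries. Of these 9, 5 were lower and 4 higher, with a median log2 ratio of -0.04, and 49.1% of all genes were lower. *Trpc6* is expressed in many cell types, and the endothelial and the leukocyte and macrophage genes were also higher in *Dnmt1*-KO, so which cells carried the *Trpc6* value was not tested.

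Because *Dnmt1* maintains methylation at CG dinucleotides, the promoters of the members at either end of the range are shown, with each CG in capitals. They are the 250 bases before the RefSeq start of *Pln* (chr10:53337436-53337685, plus strand) and of *Stim1* (chr7:102267569-102267818, plus strand) in GRCm38.p6, written 5′ to 3′.
Pln: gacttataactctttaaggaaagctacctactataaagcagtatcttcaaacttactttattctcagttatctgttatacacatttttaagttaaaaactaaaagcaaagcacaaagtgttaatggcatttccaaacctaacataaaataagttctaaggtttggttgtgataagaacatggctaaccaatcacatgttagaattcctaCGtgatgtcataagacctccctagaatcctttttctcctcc
Stim1: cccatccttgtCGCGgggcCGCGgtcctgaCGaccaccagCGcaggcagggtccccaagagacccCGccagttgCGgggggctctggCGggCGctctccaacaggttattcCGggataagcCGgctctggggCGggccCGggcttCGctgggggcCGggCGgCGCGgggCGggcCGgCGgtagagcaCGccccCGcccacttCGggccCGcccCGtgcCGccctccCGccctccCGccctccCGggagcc
The *Pln* stretch holds 1 CG and the *Stim1* stretch 31. A TATAAA, searched on both strands, begins 219 bases before the *Pln* start and is not found in the *Stim1* stretch.

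RefSeq promoter windows of 300 bases, 250 before and 50 after a start, were at hand for 6 of the 10 members, 9 windows in all. The other members are *Cacna1h*, *Ryr3*, *Itpr1* and *Atp2a2*. The number of CG was 1 for *Pln*, 4 for *Atp2b4*, 18 for *Ryr2* and 38 for *Stim1*. *Cacna1c* had windows with 3, 57 and 7 CG, and *Cacnb2* windows with 35 and 4, and which start is used in this tissue was not analysed here. The median over all 32851 windows was 7. TATAAA occurred in 1 of the 9 windows, that of *Pln*, and in 13.6% of all windows. The CArG box, the binding motif of serum response factor, was searched on both strands and found in 0 of the 9 windows and in 1.63% of all windows. Among genes with a mean of at least 1 FPKM, those whose windows hold at most 4 CG had a median log2 ratio of 0.40 (590 genes), and those with a window of 30 or more CG had -0.10 (2670 genes). *Pln*, with 1 CG, went against the median of its class. The window of *Atp2b4* lies inside the GENCODE gene, so its count is that of an internal start. Methylation of these promoters was not analysed here.

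**Figure D3:**
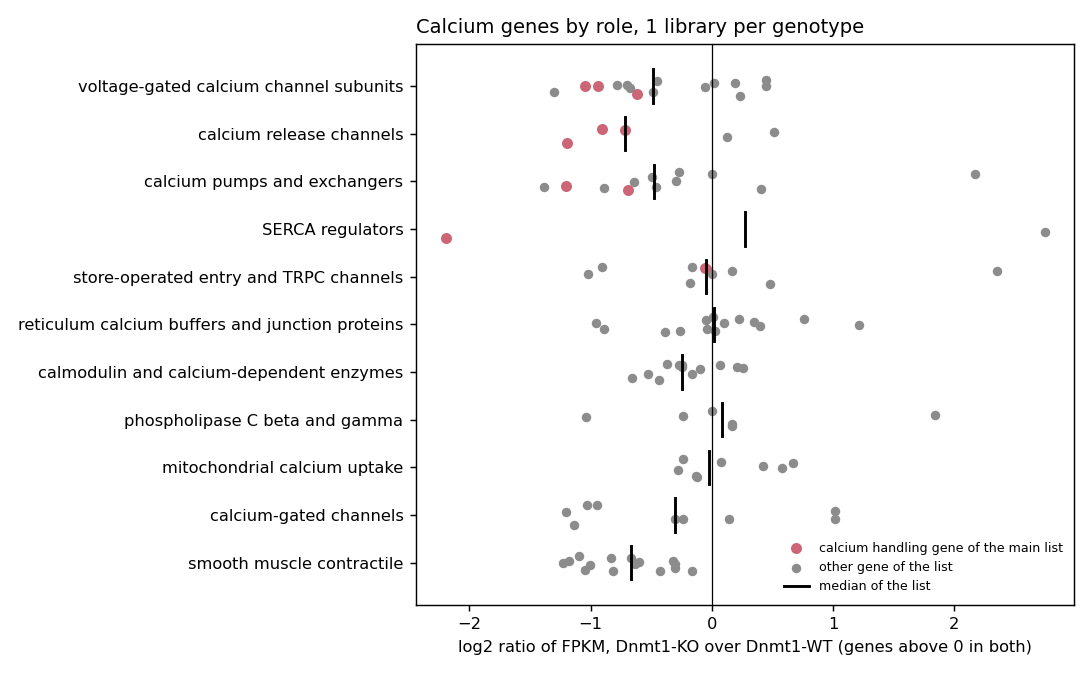
Log2 ratio of FPKM, *Dnmt1*-KO over *Dnmt1*-WT, for each gene above 0 in both libraries, in rows by role; red points are the 10 calcium handling genes, grey points the other genes of a list, and black bars the medians. Red points lie left of 0 in every row that holds one, and the contractile genes of smooth muscle in the bottom row have a median of -0.66.

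The proteins that store calcium in the reticulum and hold it against the membrane did not move as a group. Of 14 such genes, 6 were lower and 8 higher in *Dnmt1*-KO, with a median log2 ratio of 0.02 that turned negative under some scalings. Of all genes, 49.1% were lower. *Jph2*, which ties the reticulum to the plasma membrane, was listed at 157.36 FPKM in *Dnmt1*-WT and 84.77 FPKM in *Dnmt1*-KO. *Mrvi1*, which couples cGMP kinase to *Itpr1*, had 87.13 and 45.01 FPKM, a ratio of 0.517. Both were lower by a larger factor than *Itpr1*. *Calr*, the general calcium buffer of the endoplasmic reticulum, was listed at 341.83 and 331.15 FPKM, and *Fkbp1a*, which binds ryanodine receptors, at 197.6 and 201.05 FPKM.

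The calsequestrins, which bind calcium in the lumen of the reticulum in muscle, went in opposite directions. *Casq2*, the cardiac and smooth muscle form, was listed at 77.02 FPKM in *Dnmt1*-WT and 58.85 FPKM in *Dnmt1*-KO. *Casq1*, known from skeletal muscle, had 19.82 and 45.95 FPKM, a ratio of 2.32. *Casq2* made up 79.5% of the pair in *Dnmt1*-WT and 56.2% in *Dnmt1*-KO. Of 9 skeletal muscle genes with a row, 7 were higher in *Dnmt1*-KO and 0 were at 0 in either library, among them *Tnnc2* at 0.51 and 13.46 FPKM. Their sum was nonetheless 108.81 and 88.49 FPKM because *Ckm*, at 96.73 and 41.41 FPKM, was lower. The skeletal forms *Ryr1*, *Atp2a1* and *Cacna1s* were at 0 in *Dnmt1*-WT and at 0.16, 0.08 and 0.14 FPKM in *Dnmt1*-KO. The part of skeletal muscle RNA in the *Casq1* value was not tested.

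Calmodulin, the sensor to which calcium binds in the cytosol, was among the most abundant products of the pathway. *Calm2* was listed at 900.85 FPKM in *Dnmt1*-WT and 572.11 FPKM in *Dnmt1*-KO, a ratio of 0.635. *Calm3* had 257.87 and 217.16 FPKM. Both were lower in *Dnmt1*-KO. Over 12 genes of calmodulin, its kinases and calcineurin, 9 were lower and 3 higher, with a median log2 ratio of -0.25. None of the 12 was at a ratio of 0.5 or less. Of all genes, 49.1% were lower and 4.98% at a ratio of 0.5 or less. Upstream, *Plcb4*, a phospholipase that makes IP3, was listed at 28.92 and 14.12 FPKM, while *Plcb3* had 23.39 and 26.2 FPKM. *Plcg2*, a phospholipase of blood cells, had 0.55 and 1.97 FPKM. Of the 6 phospholipase genes 2 were lower, 3 higher and 1 equal, with a median log2 ratio of 0.08 that also turned negative under some scalings.

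Over the 10 lists of calcium genes, 83 genes outside the main set were above 0 in both libraries. Of these, 46 were lower, 36 higher and 1 equal, 7 had a ratio of 0.5 or less and 7 of 2 or more, with a median log2 ratio of -0.10. Over all genes, 49.1% were lower, 4.98% had a ratio of 0.5 or less and 11.8% of 2 or more. For the 41 of these 83 genes with a mean of at least 10 FPKM, 28 were lower and the median was -0.25. Of the 41, 2 had a ratio of 0.5 or less and 2 of 2 or more. Of all genes of that level, 52.8% were lower and 2.54% had a ratio of 0.5 or less, and their median log2 ratio was -0.028. Genes outside the main set thus lay on both sides of 0, and those with a mean of at least 10 FPKM leaned to the lower side.

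Against the contractile genes of the same libraries, the calcium handling genes lay on both sides. The median log2 ratio of the contractile genes was -0.66, and 8 of the 10 members were below it. These ratios were not centred on transcript length. Centring put *Itpr1* at -0.49, *Atp2a2* at -0.54, *Ryr2* at -0.68 and *Cacna1c* at -0.71. The contractile median after such centring is not given here, so the count of 8 holds for the values as listed. *Atp2a2*, *Itpr1* and *Cacna1h* were within 0.05 of that median on the log2 scale, at -0.02, -0.05 and 0.05. *Ryr2* and *Cacna1c* lay 0.24 and 0.27 below it, and *Cacnb2*, *Ryr3* and *Atp2b4* between 0.38 and 0.54 below it. *Pln* was 1.53 below the contractile median and *Stim1* 0.61 above it. With *Acta2* as the reference, 9 members were lower than it, and with *Myh11* 3 were, *Ryr3*, *Atp2b4* and *Pln*. The contractile genes themselves ranged widely, from *Cnn1* at 690.34 and 616.13 FPKM to *Smtn* at 394.94 and 168.81 FPKM.

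**Figure D4:**
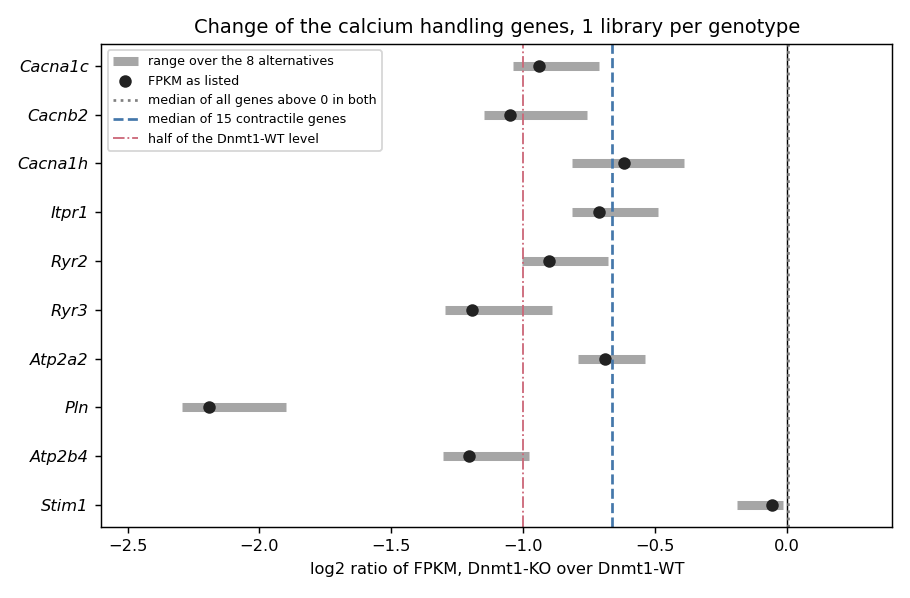
Log2 ratio of FPKM, *Dnmt1*-KO over *Dnmt1*-WT, of each calcium handling gene (black points) with the range over 8 other ways of scaling or correcting the values (grey bars). The dashed line marks the median of 15 contractile genes, -0.66; *Pln* lies far to its left at -2.19, *Stim1* to its right at -0.06, and no grey bar crosses 0.

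Genes of the same level gave a further frame for these ratios. Genes with a mean of at least 1 FPKM were divided into 20 equal bins by mean level, and 6 of the 10 members, *Cacna1c*, *Cacnb2*, *Ryr2*, *Ryr3*, *Atp2b4* and *Pln*, lay below the 5th percentile of their bin. For *Atp2b4*, 1.49% of genes of like level had a lower ratio, and for *Cacna1h* 8.81% had. The bins match level and not transcript length. After centring on transcript length, *Cacna1c*, *Ryr2* and *Ryr3* were at -0.71, -0.68 and -0.97. The 5th percentiles of their bins, not centred, were -0.75, -0.78 and -0.99, so these values no longer passed them. The comparison by level describes the ratios as listed. This is a description of the 2 libraries, in which genes are not replicates.

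**Figure D5:**
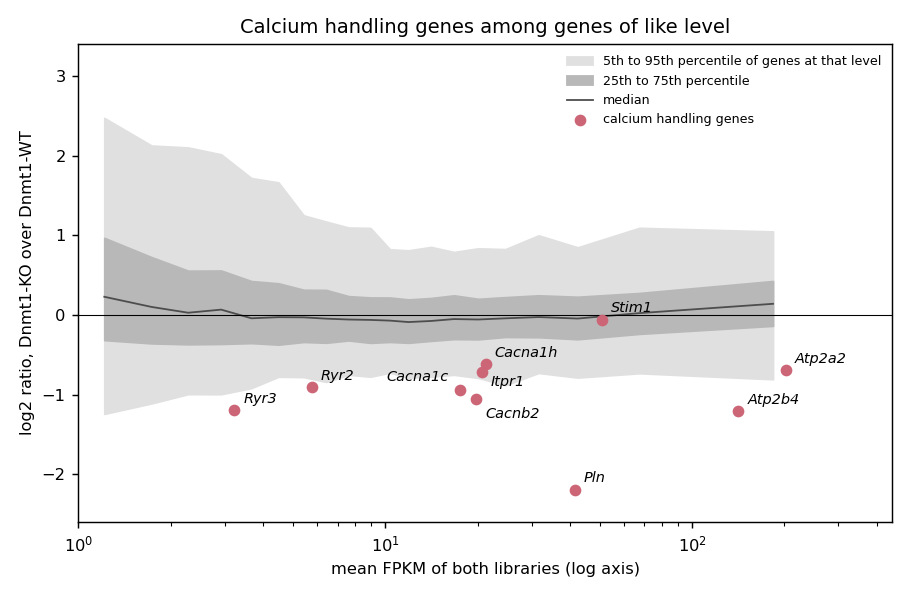
Log2 ratio of FPKM, *Dnmt1*-KO over *Dnmt1*-WT, against the mean FPKM of both libraries (log axis); bands give the 5th to 95th and the 25th to 75th percentile of all genes with a mean of at least 1 FPKM in 20 bins of level, and points the calcium handling genes. *Pln*, at -2.19, lies far under the band, and *Stim1*, at -0.06, close to the median line.

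Transcripts of calcium channels and pumps are long, and in these libraries the ratio ran with transcript length. Across all genes with a GENCODE transcript, the median log2 ratio ran from 0.28 in the tenth of genes with the shortest transcripts to -0.23 in the tenth with the longest, which starts at 6712 bases. *Cacna1c*, *Cacna1h*, *Ryr2*, *Ryr3*, *Itpr1* and *Atp2b4* all belong to that last bin. After centring on transcript length, the log2 ratio was -0.71 for *Cacna1c*, -0.39 for *Cacna1h*, -0.68 for *Ryr2*, -0.97 for *Ryr3*, -0.49 for *Itpr1* and -0.98 for *Atp2b4*. *Pln*, with the shortest transcript of the set at 2334 bases, was at -2.29 after centring and was then the 1 member with a ratio of 0.5 or less. GC content ran with the ratio as well, from a median of -0.29 in the tenth of genes with the lowest GC content to 0.20 in that with the highest. *Pln* and *Cacnb2* belong to the lowest GC bin, and centring on GC content gave -1.90 for *Pln* and -0.76 for *Cacnb2*. *Cacna1h*, in the highest GC bin, moved the other way, from -0.62 to -0.81, and *Stim1* went from -0.06 to -0.19.

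The number of transcript variants differed between libraries for 5 of the 10 members. It was 13 in *Dnmt1*-WT and 12 in *Dnmt1*-KO for *Cacna1c*, 3 and 5 for *Ryr2*, 3 and 4 for *Atp2a2*, and 4 and 5 for *Atp2b4*, beside the 2 and 1 of *Pln*. Fewer variants in *Dnmt1*-KO were thus found for 2 members and more for 3, and over all genes 73.9% had as many in both. *Cacna1h*, *Itpr1* and *Stim1* had 3 variants, *Ryr3* 6 and *Cacnb2* 2 in both libraries. Levels of single variants were not analysed here.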

How the data were processed

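mRNA-seq of jejunal tunica muscularis was analysed, with 1 library for each genotype, assigned from the genotype labels. Libraries were made with the TruSeq RNA kit from total RNA. The submitters' processing notes name TopHat 1.4.1, Cufflinks 2.0.2 and mm10, without parameters. The authors deposited FPKM per gene symbol, rounded to 2 decimals, the number of transcript variants per library, and the authors' ratio between genotypes, which was not used. Read counts per gene and depth are not in the table, and 0 value columns lacked a sample.

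Ratios are plain ratios of FPKM without scaling or pseudocount over genes above 0 in both libraries. A ratio of 0.5 or less, or of 2 or more, was counted as called. With 1 library per genotype no test was run. The 10 members and the gene lists (10 of calcium genes, 10 of cell types) were chosen with earlier results of these data known. Some genes of the lists are not reported here. Named genes were the members, *Dnmt1*, members of a list where it is described, and genes overlapping a member. *Ccdc109b* and *Emr1* were matched through RefSeq synonyms to *Mcub* and *Adgre1*, and *Myh4* had no row. Coordinates, transcript length and GC content of the longest transcript came from GENCODE M21 (GRCm38), with a transcript for 95.2% of genes, and promoters from RefSeq (GRCm38.p6). Alternatives were the scaling (median, FPKM sum, upper quartile, mean trimmed by 30% at each end), pseudocounts of 0.1 and 1 FPKM, filters at a mean of 1 and 10 FPKM, a fold of 1.5, and centring in 10 bins of length or GC content. The code for counting and centring was run on simulated data with little noise and planted changes well past the cut-off. That run does not bear on ratios near the cut-off in these libraries. Python 3.11.15, numpy 2.4.6, pandas 2.3.3 and matplotlib 3.10.9 were used.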

Additional observations from a re-analysis of the deposited data

How the results depend on the processing

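Each member was lower in *Dnmt1*-KO under each of the 8 scalings, pseudocounts and centrings, 80 values in all, and none of these 80 moved by 1.5-fold or more, the tolerance used because no replicate spread exists. Dividing by the FPKM sum shifted all genes by 0.10 on the log2 scale. The 4 members at a ratio of 0.5 or less became 6 with the FPKM sum, 3 with GC centring, 2 with a pseudocount of 1, 1 after centring on transcript length and 9 at a fold of 1.5. Against *Myh11* in place of the contractile median, the members below the reference went from 8 to 3 and the median difference to 0.18 from -0.26. Some list medians changed sign. The reticulum buffers went to -0.082 with the FPKM sum and -0.081 with GC centring, the phospholipases to -0.019 and -0.089, and mitochondrial uptake to 0.0076 with median scaling, 0.0085 with the upper quartile, 0.0055 with the trimmed mean and 0.12 with GC centring. The SERCA regulators, *Pln* and *Sln* only, went from 0.28 to -0.19 with a pseudocount of 1. Calcium-gated channels went to -0.95 over genes with a mean of at least 1 FPKM, since fewer genes were used. No paired analysis was possible because each genotype has 1 library, and for the same reason no replicate could be left out. Read counts per gene are not in the table, and *Ryr3* was the member with the lowest FPKM.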

Other observations

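Channels that open on calcium at the plasma membrane, counted above but not yet described, were mostly lower in *Dnmt1*-KO. *Kcnma1*, the pore of the large-conductance calcium-gated potassium channel, was listed at 22.82 FPKM in *Dnmt1*-WT and 11.83 FPKM in *Dnmt1*-KO, a ratio of 0.518. Its smooth muscle subunit *Kcnmb1* had 25.1 and 21.31 FPKM, and *Kcnmb4*, known from brain, was higher at 4.3 and 8.68 FPKM. *Kcnn3*, a small-conductance channel enriched in PDGFRA-positive interstitial cells, had 32.46 and 15.93 FPKM, and *Pdgfra* itself 68.95 and 40.72 FPKM, while the other 5 genes of the fibroblast list, which holds *Pdgfra*, were higher. *Ano1*, the calcium-gated chloride channel of interstitial cells of Cajal, had 45 and 36.41 FPKM. All 5 genes of the list for these cells were lower as listed, with a summed level of 173.99 FPKM in *Dnmt1*-WT and 140.85 FPKM in *Dnmt1*-KO. Of these, *Kit*, at 38.95 and 38.1 FPKM, turned higher under another way of scaling or correcting the values. Of the 9 calcium-gated channel genes, 6 were lower and 3 higher, 3 had a ratio of 0.5 or less and 2 of 2 or more. Shares over all genes were 49.1% lower, 4.98% at a ratio of 0.5 or less and 11.8% at 2 or more. The median log2 ratio of the 9 was -0.31, and -0.95 over those with a mean of at least 1 FPKM.

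Genes of mitochondrial calcium uptake lay on both sides of their *Dnmt1*-WT level. *Mcu*, the pore of the uniporter, was listed at 9.14 FPKM in *Dnmt1*-WT and 7.74 FPKM in *Dnmt1*-KO. Its small subunit *Smdt1* had 121.06 and 192.23 FPKM. *Ccdc109b*, a pore subunit that lowers uptake, had 7.15 and 9.59 FPKM. Of the 8 genes, 4 were lower and 4 higher, and none passed a ratio of 0.5 or of 2. Of all genes, 49.1% were lower, 4.98% at a ratio of 0.5 or less and 11.8% at 2 or more. The list of enteric glia genes summed to 67.25 and 99.23 FPKM and that of fibroblast genes to 3087.96 and 4843.79 FPKM. Most of the rise in the glial sum came from *Gfap*, at 4.78 and 35.36 FPKM, and the median log2 ratio of that list was 0.13.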
